A study of Mus musculus with 6 samples.

Results

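The 10 genes of the neurofilaments and the axonal cytoskeleton followed here were chosen by symbol from the 24062 genes counted in each library: *Nefl*, *Nefm*, *Nefh*, *Ina*, *Prph*, *Tubb3*, *Mapt*, *Stmn2*, *Gap43* and *Uchl1*. All 10 were present in the count data. The study asked what loss of the transcription factors Runx1 and Runx3 in the Schwann cell (SC) lineage does to neurofibromas that form in mice without *Nf1*. RNA-seq of bulk DRG/tumors gave 6 libraries from mice of the C57BL/6-I129 background, 3 from *Nf1fl/fl;DhhCre* mice (Nf1 libraries) and 3 from mice that also carried *Runx1fl/fl* and *Runx3fl/fl* (libraries labelled double knockout). Both groups carried the floxed *Nf1* alleles and DhhCre by the study's description, so there was no group with intact *Nf1*, and no agent was given. The sample labels leave *Nf1fl/fl* out of the double knockout genotype. They also call the tissue dorsal root ganglion (DRG) in the Nf1 libraries and neurofibroma tumor in those labelled double knockout, so the tissue label and the genotype cannot be told apart. Cre is driven by the *Dhh* promoter, which acts in the SC lineage. By this design the floxed alleles should stay intact in neurons, which was not measured here. The labels give no age for these mice.

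Neurofilaments are the intermediate filaments of axons, built from a light (NF-L), a medium (NF-M) and a heavy (NF-H) subunit together with alpha-internexin or peripherin, and they set the calibre of large myelinated axons. Microtubules run beside them and carry axonal transport, with tubulin, tau and stathmin family proteins governing their assembly. In a DRG the cell bodies of the sensory neurons are known as the main source of neurofilament transcripts, and their axons are ensheathed by SCs.

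Total counts were 12439296 to 16682194 per library, so that 3 counts corresponded to 0.179 to 0.247 CPM (the usual unit of reads scaled to library size). Of the targeted genes, *Runx1* did not follow the label in every library. *Runx1* was at 131, 141 and 172 CPM in the Nf1 libraries and at 84.0, 78.9 and 185 CPM in those labelled double knockout, where replicate 3 was the highest of all 6. *Runx3* was at 19.9, 15.1 and 29.9 CPM and at 13.5, 10.3 and 12.1 CPM, without overlap (log2 fold change -0.79, limma-voom adjusted p = 0.104). *Nf1* was at 334, 273 and 298 CPM and at 266, 263 and 342 CPM, with overlap (log2 fold change -0.06, limma-voom adjusted p = 0.809). The state of its floxed alleles was not tested. Double knockout replicate 3 was also the only library of its sequencing run, the other 5 sharing another run. It is kept under its label, and values without it are given below. Replicate 2 of each genotype held transcripts of skeletal muscle. The 9 muscle markers summed to 2723 CPM in the Nf1 replicate 2 and 11783 CPM in the double knockout replicate 2, against 7.38 to 73.1 CPM in the other 4 libraries.

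The 3 neurofilament triplet genes were each higher in the libraries labelled double knockout, by 4.78-fold to 5.43-fold in mean CPM. *Nefl* encodes NF-L, the subunit on which the other neurofilament proteins assemble, and lies at chr14:68083863-68089095 of GRCm38 on the plus strand. Its level was 529, 989 and 468 CPM in the Nf1 libraries (662 ± 285, mean ± SD, n = 3) and 2486, 2590.1 and 5584 CPM in those labelled double knockout (3554 ± 1760, n = 3). The groups did not overlap, and double knockout replicate 3 stood well above the other two. The log2 fold change was 2.40 (SE 0.39, 95% interval 1.49 to 3.30, limma-voom with Benjamini-Hochberg adjusted p = 0.0120). This was a 5.37-fold difference of the means and lay at the 96.8th percentile of the log2 fold changes of all genes tested. In bulk samples more cells of a type and more RNA per cell cannot be told apart, here and for the genes that follow.

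*Nefm* encodes NF-M and is annotated on the opposite strand over a span that contains *Nefl* (chr14:68082590-68124846, minus strand). It was at 230, 393 and 202 CPM in the Nf1 libraries and at 1002, 1067 and 2406 CPM in those labelled double knockout. The libraries stood in the same order as for *Nefl*, again without overlap. The means were 275 ± 103 and 1492 ± 792 CPM, and the log2 fold change was 2.38 (SE 0.39, limma-voom adjusted p = 0.0124). In the GENCODE M21 annotation 1108 exon bases of *Nefl* (32.8% of its exon length) are also exon of a transcript of *Nefm* on the other strand. Whether the counting used strand is not stated, so a part of the reads of either gene may have been assigned to the other or to neither. *Nefh*, for the heavy subunit NF-H that fills large axons (chr11:4938754-4948064, minus strand), was at 78.8, 124 and 72.7 CPM against 287, 337 and 695 CPM. Its groups did not overlap either. The means were 91.9 ± 28.2 and 439 ± 222 CPM, with a log2 fold change of 2.19 (SE 0.37, limma-voom adjusted p = 0.0128).

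**Figure D1:**
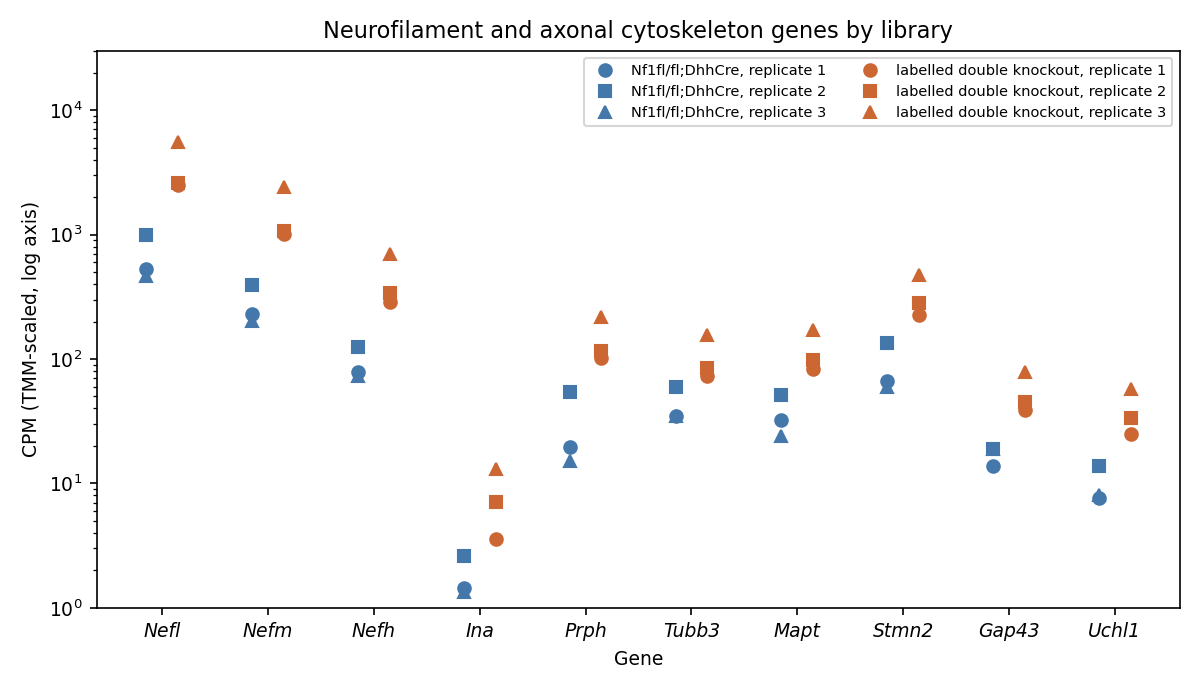
Level of each of the 10 genes in CPM on a log axis, 1 point per library, with 3 Nf1 and 3 double knockout libraries per gene marked by colour and replicates by symbol. All 3 libraries labelled double knockout lie above all 3 Nf1 libraries for each gene, and replicate 3 is the highest point of its group throughout.

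The other 2 intermediate filament genes of neurons had differences of similar size. *Prph* encodes peripherin, the filament protein of peripheral and above all small-diameter neurons (chr15:99055174-99058978, plus strand). It was at 19.8, 54.5 and 15.3 CPM in the Nf1 libraries and at 101, 115 and 216 CPM in those labelled double knockout. The Nf1 replicate 2 stood apart from the other two of its group but was below every library of the other group. The log2 fold change of *Prph* was 2.41 (SE 0.49, 95% interval 1.27 to 3.55, limma-voom adjusted p = 0.0193). *Ina* encodes alpha-internexin, a filament protein of central more than of peripheral axons (chr19:47014698-47025327, plus strand). It was the lowest of the 10 genes, with 21, 44 and 21 reads in the Nf1 libraries and 45, 86 and 199 reads in those labelled double knockout. These correspond to 1.46, 2.62 and 1.35 CPM against 3.59, 7.07 and 13.1 CPM, again without overlap. Its log2 fold change of 2.01 (SE 0.65, 95% interval 0.50 to 3.53) did not pass the threshold in limma-voom (adjusted p = 0.0690, unadjusted p = 0.0162). It passed by the edgeR quasi-likelihood test (2.13, adjusted p = 0.0347) and by DESeq2 (2.12, adjusted p = 0.00133). Of the exon bases of *Ina*, 14.1% overlap exons of *Nt5c2* on the other strand.

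Promoter sequence was at hand for 4 of the 10 genes (RefSeq, GRCm38.p6), and the 150 bases before each RefSeq start are shown because these 4 genes were all higher in the same libraries. This start equals the GENCODE gene start given above for *Prph*, lies 17 bases before it for *Ina*, and lies 129 bases after it for *Tubb3* and 30 after it for *Uchl1*. The last 129 bases of the *Tubb3* window and the last 30 of the *Uchl1* window are therefore inside the GENCODE gene. All run 5′ to 3′ on the plus strand. Capitals mark matches of either strand to TATAA, the core of the TATA box of many promoters, and to TGCGGT, a form of the core sequence that RUNX proteins bind. On the opposite strand the latter reads ACCGCA. This second motif was added after the windows had been read.
Ina, chr19:47014531-47014680: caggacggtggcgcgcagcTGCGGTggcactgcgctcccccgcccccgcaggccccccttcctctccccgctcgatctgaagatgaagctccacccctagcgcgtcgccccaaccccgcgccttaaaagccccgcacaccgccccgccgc
Prph, chr15:99055024-99055173: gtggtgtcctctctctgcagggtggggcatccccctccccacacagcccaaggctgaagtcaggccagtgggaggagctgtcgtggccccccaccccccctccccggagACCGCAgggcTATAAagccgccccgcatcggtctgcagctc
Tubb3, chr8:123411403-123411552: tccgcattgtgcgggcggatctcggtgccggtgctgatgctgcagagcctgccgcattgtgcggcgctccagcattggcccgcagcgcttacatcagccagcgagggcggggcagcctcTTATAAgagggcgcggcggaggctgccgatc
Uchl1, chr5:66675971-66676120: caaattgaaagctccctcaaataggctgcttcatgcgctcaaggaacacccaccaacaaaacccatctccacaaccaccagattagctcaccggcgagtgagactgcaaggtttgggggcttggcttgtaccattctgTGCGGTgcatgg

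TATAA was present 31 bases before the RefSeq start of *Prph* and 30 bases before that of *Tubb3*, and in 22.8% of 32851 mouse promoters over 250 bases, both strands read. TGCGGT stood 131, 41 and 12 bases before the RefSeq starts of *Ina*, *Prph* and *Uchl1* and was present in 5.1% of all promoters. The other core form, TGTGGT, was in none of the 4 windows and in 14% of all promoters. In *Tubb3* TATAA reads on both strands in overlapping letters, and no other matches overlap. A match of these letters is no evidence of a bound site, and RUNX binding was not analysed here.

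The make-up of the filament pool was similar in both groups beside the difference in its level. With CPM divided by the length of the longest coding transcript, *Nefl* made up 63.0% ± 0.45 of the 5 filament genes in the Nf1 libraries and 64.0% ± 0.71 in those labelled double knockout (SD, n = 3 each). The groups did not overlap, with 62.7% to 63.5% against 63.6% to 64.8%. *Nefm* made up 24.4% ± 1.04 and 24.4% ± 0.65. *Nefh* followed with 7.64% ± 0.79 and 6.67% ± 0.34, *Prph* with 4.77% ± 1.39 and 4.79% ± 0.34, and *Ina* with 0.182% ± 0.0067 and 0.145% ± 0.043. These are shares of transcript and not of protein.

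The 3 genes of axonal microtubules were also higher in the libraries labelled double knockout, with *Tubb3* the least of all 10. *Tubb3* encodes the neuronal class III beta-tubulin (chr8:123411424-123422015, plus strand). It was at 34.6, 60.0 and 34.6 CPM in the Nf1 libraries and at 73.3, 85.0 and 156 CPM in those labelled double knockout. The lowest library labelled double knockout was close above the highest Nf1 library. The log2 fold change of *Tubb3* was 1.26 (SE 0.34, 95% interval 0.45 to 2.06, limma-voom adjusted p = 0.0427). *Mapt*, for tau, which binds along axonal microtubules (chr11:104231390-104332090, plus strand), was at 32.0, 51.1 and 24.1 CPM against 83.3, 98.1 and 171 CPM. Its log2 fold change was 1.72 (SE 0.36, limma-voom adjusted p = 0.0205). *Stmn2* encodes stathmin-2 (SCG10), a microtubule regulator of growing and regenerating axons (chr3:8509360-8561606, plus strand). It was at 67.1, 135 and 59.4 CPM in the Nf1 libraries and at 227, 284 and 476 CPM in those labelled double knockout. The log2 fold change of *Stmn2* was 1.94 (SE 0.37, limma-voom adjusted p = 0.0172). *Mapt* and *Stmn2* were separated more widely between the groups than *Tubb3*.

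*Gap43* and *Uchl1*, whose products are no filament or tubulin subunits but abundant proteins of growth cones and of the neuronal cytosol, differed in the same direction. *Gap43* encodes a growth cone protein that SCs can also express (chr16:42248442-42340651, minus strand). It was at 13.7, 18.9 and 18.7 CPM against 38.9, 44.7 and 78.2 CPM. Unlike the others, it had its Nf1 replicate 3 almost level with replicate 2, and the smallest spread among the Nf1 libraries relative to its mean. The log2 fold change of *Gap43* was 1.61 (SE 0.31, limma-voom adjusted p = 0.0170). *Uchl1* encodes the neuronal ubiquitin hydrolase PGP9.5, a common histological marker of nerve fibres (chr5:66676091-66687234, plus strand). It was at 7.63, 13.8 and 8.08 CPM against 24.9, 33.3 and 57.4 CPM, with a log2 fold change of 1.93 (SE 0.40, limma-voom adjusted p = 0.0200). Exons of *Uchl1os* on the other strand overlap 18.1% of the exon bases of *Uchl1*.

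Of the 10 genes, 9 were called higher (adjusted p below 0.05 and more than 2-fold) and none lower, where 8.03% of the 15652 genes tested were called higher and 5.36% lower. For 10 of 10 all 3 libraries labelled double knockout were above all 3 Nf1 libraries, against 21.8% of all genes tested. Their median log2 fold change was 1.98, beside 0.02 over all genes. The genes were picked with results of these libraries known, so these counts are descriptions and not independent evidence of the direction. The calls depended on single Nf1 libraries. Without Nf1 replicate 1 none of the 10 passed, although 10 of 10 had an unadjusted p below 0.05 and their median log2 fold change was 1.88 (*Nefl* 2.31, limma-voom adjusted p = 0.0541). Without this library 362 genes were called in all, in place of 2096, 1.13% of those tested being higher, and of the 10 the edgeR quasi-likelihood test called 0 and DESeq2 10. Without Nf1 replicate 3, 4 of the 10 passed, where 3.35% of all genes tested were called higher (1033 calls in all), and without double knockout replicate 2, 7 of the 10, where 4.32% were (1018 calls in all). Without double knockout replicate 3, the library in which *Runx1* was not reduced, 8 of 10 passed with a median log2 fold change of 1.61, where 7.02% of all genes were called higher. Without both libraries that held muscle transcripts 9 of 10 passed, where 6.55% of all genes were called higher.

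**Figure D2:**
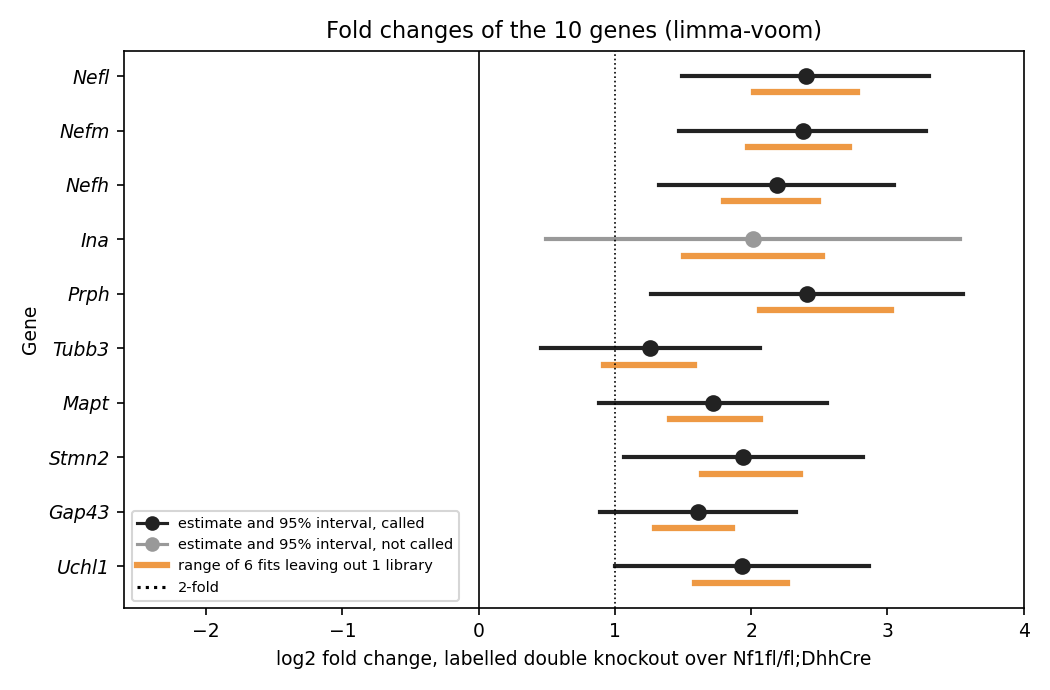
Log2 fold change of each gene, libraries labelled double knockout over Nf1 libraries, as a point with its 95% interval from limma-voom (grey where not called), and as an orange line the range of the 6 fits that each leave out 1 library. The points lie between 1.26 for *Tubb3* and 2.41 for *Prph*, each interval and range is above 0, and the lower end of each range is the fit without double knockout replicate 3.

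The spread within a genotype was shared by the 10 genes and by other neuronal genes. Nf1 replicate 2 had the highest level of its genotype for 10 of 10 genes, as it had for 37.8% of all genes tested, and double knockout replicate 3 had the highest of its genotype for 10 of 10, as for 42.6% of all genes. The same libraries were the highest of their genotype for 13 of 13 sensory neuron genes, and for 71.4% (Nf1 replicate 2) and 94.3% (double knockout replicate 3) of 35 other axonal cytoskeleton genes, lists described below. Relative to the mean of the other libraries of its genotype, double knockout replicate 3 was 1.86-fold (*Stmn2*) to 2.47-fold (*Ina*) higher, and Nf1 replicate 2 was 1.16-fold (*Gap43*) to 3.11-fold (*Prph*) higher. Leaving out single libraries moved the log2 fold change of *Nefl* between 2.02 and 2.78, that of *Prph* between 2.07 and 3.02 and that of *Tubb3* between 0.92 and 1.58. *Ina* passed in 1 of these 6 fits, *Tubb3* in 2 and *Uchl1* in 3. *Prph*, *Mapt* and *Stmn2* passed in 4 each, and *Nefl*, *Nefm*, *Nefh* and *Gap43* in 5 each.

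Per length of transcript, the 10 genes spanned a wide range of levels in both groups. In the Nf1 libraries *Nefl* was at 196 ± 84.3 CPM per kb and *Nefm* at 74.7 ± 28.0, followed by *Stmn2* (42.0 ± 20.0), *Tubb3* (23.1 ± 7.85), *Nefh* (23.0 ± 7.07), *Prph* (16.0 ± 11.5), *Gap43* (12.1 ± 2.06), *Uchl1* (8.35 ± 2.90), *Mapt* (6.80 ± 2.65) and *Ina* (0.558 ± 0.218). Of neighbours in this order, the libraries of *Nefl* and *Nefm* and those of *Mapt* and *Ina* did not overlap, and the other 7 pairs did. In the libraries labelled double knockout *Nefl* was at 1051 ± 521 CPM per kb, *Nefm* at 405 ± 215, *Stmn2* at 159 ± 63.0, *Nefh* at 110.0 ± 55.7, *Prph* at 77.2 ± 33.5, *Tubb3* at 56.1 ± 24.0, *Gap43* at 38.0 ± 14.9, *Uchl1* at 32.7 ± 14.3, *Mapt* at 22.4 ± 8.94 and *Ina* at 2.45 ± 1.49. *Tubb3* stood at place 4 in the first order and at place 6 in the second, behind *Nefh* and *Prph*. With the length of all exons joined in place of the longest transcript, *Stmn2* moved from place 3 to place 5 in both groups, while *Nefl*, *Nefm* and *Ina* kept theirs.

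To see which genes differed in proportion, each was expressed relative to *Nefl* within its own library. The difference between the groups in log2 ratio to *Nefl* was -0.02 for *Nefm*, 0.02 for *Prph*, -0.21 for *Nefh* and -0.42 for *Ina*, with overlapping libraries (exact permutation p = 0.2 to 0.9, two-sided). The ratios of the remaining 5 were lower in every library labelled double knockout than in any Nf1 library, by -1.15 for *Tubb3*, -0.80 for *Gap43*, -0.68 for *Mapt*, -0.47 for *Uchl1* and -0.46 for *Stmn2*. For *Tubb3* the log2 ratio was -3.91 ± 0.14 in the Nf1 libraries and -5.06 ± 0.12 in those labelled double knockout (SD, n = 3 each). Each of these 5 had an exact permutation p of 0.1, the smallest that 3 against 3 libraries can give, and 0.18 after adjustment over the 9 ratios. None of the 9 ratios therefore passed a threshold of 0.05, which this permutation test cannot reach with 3 libraries a group. *Nefl* itself lay at the 96.8th percentile of the log2 fold changes, so most genes tested had a smaller one. A lower ratio to *Nefl* is thus not particular to *Tubb3*, *Gap43*, *Mapt*, *Uchl1* and *Stmn2*. The share of all genes without overlap in this ratio was not computed.

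Each gene was also set against a list of 13 genes of sensory neurons. These were neuronal splicing and synaptic genes and sensory transcription factors, such as *Rbfox3*, *Snap25*, *Syn1*, *Avil* and *Isl1*. Of the 13, 12 were called higher and none lower, with a median log2 fold change of 2.40, where 8.03% of all genes tested were called higher. The list was chosen with earlier results known and differed almost as *Nefl* did. It therefore largely repeats the ratios to *Nefl* and is no separate support for them. Relative to the mean log2 CPM of this list, the difference between the groups was 0.08 for *Nefl*, 0.06 for *Nefm*, 0.09 for *Prph*, -0.14 for *Nefh* and -0.34 for *Ina*, all with overlap (exact permutation p = 0.3 to 0.8). It was -1.07 for *Tubb3*, -0.72 for *Gap43*, -0.61 for *Mapt*, -0.39 for *Uchl1* and -0.38 for *Stmn2*, without overlap (exact permutation p = 0.1 each, 0.2 after adjustment over 10 genes). The groups of *Gap43* came close, with Nf1 replicate 2 at -1.10 and double knockout replicate 1 at -1.12. Summed, the 13 neuronal genes were at 550 to 1102 CPM in the Nf1 libraries and at 2661 to 5866 CPM in those labelled double knockout, so these markers were higher in the tissue labelled tumor than in that labelled DRG. The part of sampled neuronal tissue in the difference of the 10 genes was not tested, and these ratios are no test of it.

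**Figure D3:**
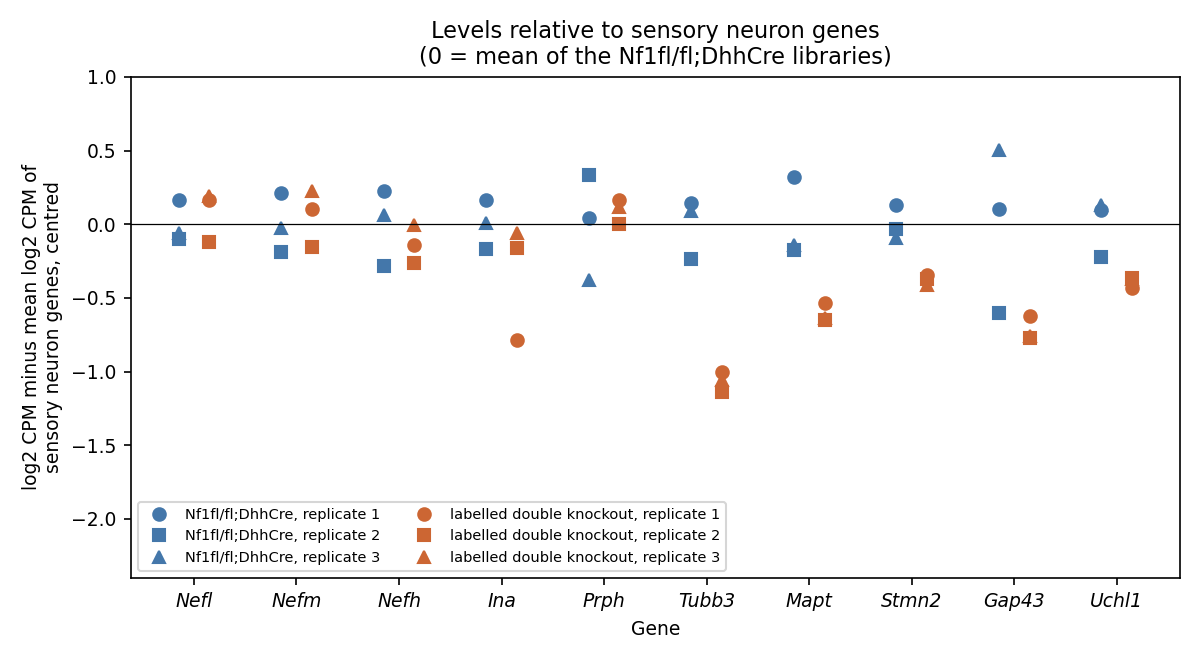
Log2 CPM of each gene minus the mean log2 CPM of 13 sensory neuron genes in the same library, shifted so that 0 is the mean of the Nf1 libraries, 1 point for each of 3 Nf1 and 3 double knockout libraries. *Nefl*, *Nefm*, *Nefh*, *Ina* and *Prph* overlap between the groups, whereas *Tubb3*, *Mapt*, *Stmn2*, *Gap43* and *Uchl1* lie lower in each library labelled double knockout.

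Other marker lists differed between the same groups, where 8.03% of all genes tested were called higher and 5.36% lower. Of 7 genes of large-diameter sensory neurons 5 were called higher and none lower (median log2 fold change 2.55), with sums, the untested *Necab2* included, of 74.9 to 138 CPM in the Nf1 libraries and 304 to 517 CPM in those labelled double knockout. Of 11 nociceptor genes 9 were called higher and none lower (median 2.16, sums 301 to 541 CPM and 1090 to 2139 CPM). Members that mark large axons, such as *Nefh*, and small ones, such as *Prph*, were thus higher beside markers of both kinds of neuron. Of 8 myelin genes of SCs 7 were called higher and none lower (median 1.41, sums 4903 to 5771 CPM and 10963 to 14376 CPM). Of 10 macrophage genes 8 were called lower and none higher (median -2.10, sums 1256 to 2604 CPM and 206 to 488 CPM), and of 4 fibroblast genes 3 were called lower and none higher (median -1.22, sums 6223 to 7124 CPM and 2275 to 3584 CPM). General SC markers summed to 1268 to 1450 CPM and to 1243 to 1706 CPM, with 1 of 6 called higher, none lower and a median of -0.08. The part of these cell types in the difference of the 10 genes was not tested. The 9 spinal cord markers summed to 2.31 to 11.7 CPM and to 9.24 to 29.9 CPM, and 2 of them had enough reads to be tested (median 2.08). In limma-voom 0 of these 2 were called and 1 had an unadjusted p below 0.05, and the edgeR quasi-likelihood test and DESeq2 each called 1 higher. *Aqp4*, for an astrocyte water channel, was at 3.40, 4.35 and 1.22 CPM against 5.82, 27.6 and 17.7 CPM, without overlap (log2 fold change 2.42, limma-voom adjusted p = 0.0770). In each genotype *Aqp4* was highest in replicate 2, the library with muscle transcripts, and the part of muscle in its level was not tested. *Slc5a7*, for the choline transporter of cholinergic neurons, overlapped (1.74, limma-voom adjusted p = 0.268). *Mnx1* and *Slc6a5*, which mark motor neurons and glycinergic neurons, were at 0 in all 6 libraries. Of 5 tested genes induced in neurons by axon injury 0 were called in limma-voom (median -0.06), 0 by the edgeR quasi-likelihood test and 2 by DESeq2. In limma-voom 4 had an unadjusted p below 0.05, of which *Sox11* and *Gal* were higher and *Jun* and *Sprr1a* lower. *Jun* passed on p but not on size (-0.52, limma-voom adjusted p = 0.0324).

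A wider list of 35 genes of the axonal cytoskeleton, none of them among the 10 (tubulins, kinesins, collapsin response mediators, spectrins and microtubule-associated proteins), was read from the same fit. All 35 had a log2 fold change above 0, 19 were called higher and none lower, and 27 were higher without overlap between the groups. Of all genes tested, 8.03% were called higher, 5.36% lower, and 21.8% were higher without overlap. The median was 1.24, between 0.26 and 3.19. Of those with a mean log2 CPM of at least 3, *Tagln3*, a neuronal actin- and microtubule-associated protein (2.60, SE 0.39, limma-voom adjusted p = 0.0111), and the neuronal kinesin heavy chains *Kif5c* (2.41, SE 0.33, adjusted p = 0.00931) and *Kif5a* (2.38, SE 0.33, adjusted p = 0.00936) had the largest differences. The smallest were those of *Dpysl2* (0.36, limma-voom adjusted p = 0.214), *Sptbn1* (0.32, 0.0538) and *Tubb2b* (0.26, 0.475), for CRMP2, a spectrin and a beta-tubulin, none of which passed. *Kif5a*, which carries neurofilaments along the axon, thus lay close to *Nefl* and *Nefm* in size. The count of the list fell to 2 of 35 without Nf1 replicate 1 and to 12 without Nf1 replicate 3. In these fits 1.13% and 3.35% of all genes tested were called higher.

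Filament and cytoskeleton genes that are not particular to neurons were mixed in direction, beside 8.03% of all genes tested called higher and 5.36% lower. Of 8 other intermediate filament genes none was called higher and 2 were called lower in limma-voom, with a median of -0.09. By DESeq2 1 was called higher. *Gfap*, the filament of astrocytes and of nonmyelinating SCs, was at 23.2, 30.8 and 28.0 CPM in the Nf1 libraries and at 6.38, 6.00 and 8.91 CPM in those labelled double knockout (log2 fold change -1.94, SE 0.24, limma-voom adjusted p = 0.00835). *Lmnb1*, for the nuclear lamin B1, was the other (-1.20). *Vim*, for vimentin of mesenchymal cells and SCs, was not called (-0.23, limma-voom adjusted p = 0.257), nor were *Lmna* (-0.61, 0.0639) and *Synm* (1.37, 0.0629). *Nes* passed on p but not on size (0.47, limma-voom adjusted p = 0.0454). *Des*, the filament of muscle, was not called (0.06, limma-voom adjusted p = 0.986), and was at 103 and 219 CPM in replicate 2 of each genotype against 3.96 to 8.67 CPM in the other 4 libraries. Of 10 widely expressed cytoskeleton genes (actins, tubulins, a stathmin and the microtubule-binding *Map4* and *Mapre1*) 2 were called higher and none lower, with a median of 0.05. These were *Stmn1*, a stathmin of neurons and of dividing cells, at 24.3, 32.9 and 29.0 CPM against 115, 140 and 166 CPM (log2 fold change 2.28, SE 0.19, limma-voom adjusted p = 0.00596), and *Tubb4b* (1.28, adjusted p = 0.0215). *Tuba1b* (0.84, limma-voom adjusted p = 0.0270) and *Tubb6* (-0.79, adjusted p = 0.0463) stayed under 2-fold, and *Actb* (-0.56, adjusted p = 0.116) and *Tuba1c* (-0.34, adjusted p = 0.604) did not pass.

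**Figure D4:**
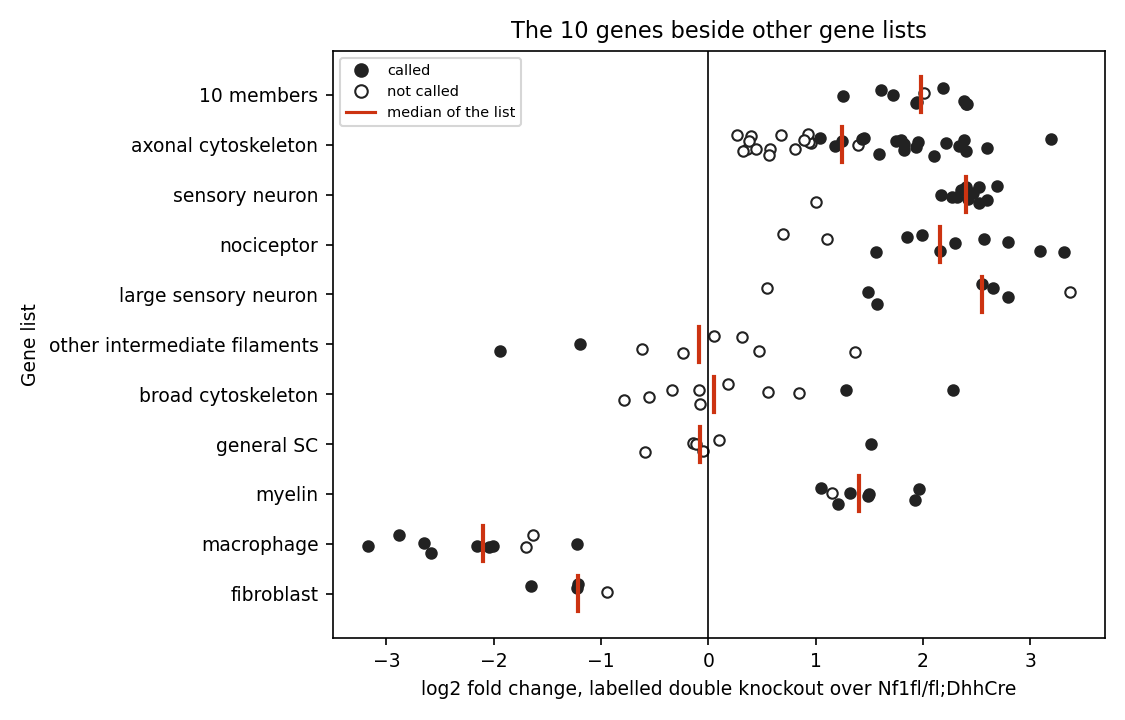
Log2 fold change, libraries labelled double knockout over Nf1 libraries, of each tested gene in the gene lists, 1 point per gene (filled where called) with a red line at the median of each list. The axonal genes and the sensory neuron genes lie above 0, the macrophage genes lie below 0, and the other filament and broad cytoskeleton genes spread to both sides with medians of -0.09 and 0.05.

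The genes outside the lists whose pattern over the 6 libraries was nearest to that of *Nefl* were sought among 10101 genes with a mean log2 CPM of at least 3, by the root mean square distance of log2 CPM centred on its mean. These were *Rph3a* (0.08), which encodes a synaptic vesicle protein, the long noncoding RNA gene *Miat* (0.09), *Spock1* (0.10), *Stxbp5l* (0.10) and *Lhfpl3* (0.10), with log2 fold changes of 2.37 to 2.58. Of the other 9 genes, *Nefm* was nearer to *Nefl* than any of these (0.05), and *Nefh* (0.15), *Prph* (0.23), *Stmn2* (0.26), *Uchl1* (0.28), *Ina* (0.35), *Mapt* (0.36), *Gap43* (0.51) and *Tubb3* (0.58) followed. For genes chosen by this distance, log2 fold changes near that of *Nefl* follow from the choice, as the distance includes the group difference.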

How the data were processed

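RNA-seq was done on bulk tissue in 6 libraries. By the labels and the study's methods, total RNA underwent NuGEN Ovation amplification and Nextera XT library preparation, and TopHat aligned the reads to mm10. The deposited counts are whole numbers of reads that the authors assigned to each gene with featureCounts, without normalization. The annotation, the use of strand and the handling of multiply aligned reads are not given in the sources used here. ChIP-seq, ATAC-seq and qRT-PCR data were not analysed here.

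Low genes were removed by filterByExpr with a minimum count of 10 and a minimum total of 15. The rest were scaled by TMM (edgeR 4.0.16) and fitted with limma-voom (limma 3.58.1, R 4.3.3), with genotype as the only term, over all 15652 genes kept. Benjamini-Hochberg adjustment ran over these genes, and a gene was called at an adjusted p below 0.05 and more than 2-fold. CPM were computed from the deposited counts after TMM scaling, and log2 CPM used a prior count of 0.5. Library totals of 12439296 to 16682194 bound counting error only. Ratios within a library were compared by two-sided exact permutation of the 6 libraries. The members and the gene lists were chosen with earlier results of these data known. Of the 3 cytoskeleton lists the 3 largest and 3 smallest differences among genes with a mean log2 CPM of at least 3 were named, of the other lists counts, medians and sums. Genes named beyond that, such as *Lmnb1*, *Jun*, *Sox11*, *Gal*, *Sprr1a*, *Aqp4* and *Slc5a7*, were chosen after their values were seen.

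Replicate numbers follow the order of the samples and pair no mice. Nothing in the labels says how the mice of a group are related, and p-values measure the spread between these libraries. Replicates differed beyond sampling noise (chi-square per degree of freedom 21.7 to 133). For 4 libraries the title and the deposited data carry different mouse numbers of the same genotype, and each library's record was followed. Positions, overlaps and transcript lengths are from GENCODE M21 (GRCm38), and promoters from RefSeq. Steps were tested on simulated data. The alternatives were DESeq2 1.42.0, the edgeR quasi-likelihood test, size factors of DESeq2, library size alone, 2 other filters, sample weights, a prior count of 5, and leaving out libraries. The plots were made in Python 3.11.15 (matplotlib 3.10.9).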

Additional observations from a re-analysis of the deposited data

How the results depend on the processing

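The 10 genes kept a positive log2 fold change under each of 7 other tests, scalings and filters and in each fit that left out 1 library. Under the 7 settings 9 or 10 of them were called, *Ina* being the one that changed: it passed with the edgeR quasi-likelihood test (2.13), with DESeq2 (2.12) and with sample weights (1.94). Under these settings 2087 to 2907 genes were called in all, of 15119 to 19968 tested, and 54.5% to 60.5% of the calls were higher. Leaving out single libraries gave 362 to 2285 called genes in all, 0 to 10 of the 10 genes and 2 to 23 of the 35 axonal genes, each lowest without Nf1 replicate 1. Further settings were added after the data were seen. Without both libraries with muscle transcripts 1752 genes and 20 of the 35 axonal genes were called, and without Nf1 replicate 1 the edgeR quasi-likelihood test called 0 of the 10 genes and DESeq2 10. Ratios near 0 changed sign. The log2 ratio of *Nefm* to *Nefl* ranged from -0.062 to 0.0020 without single libraries and that of *Prph* to *Nefl* from -0.14 to 0.23 (-8e-05 with a prior count of 5). Relative to the sensory neuron genes, *Nefm* ranged from -0.034 to 0.17 and *Prph* from -0.094 to 0.26. The cause of these changes was not tested. The other ratios kept their sign in each of these runs, but some moved in size. Without single libraries the log2 ratio to *Nefl* ranged from -1.05 to -0.52 for *Gap43* and from -0.60 to -0.15 for *Ina*. Relative to the sensory neuron genes, *Gap43* ranged from -1.02 to -0.47 and *Ina* from -0.47 to -0.11. On that scale *Nefh* ranged from -0.28 to -0.022 and *Nefl* from 0.021 to 0.18. No paired analysis was possible because the labels carry no replicate numbers, and those used here follow the order of the samples and pair no mice. With 3 libraries a group, no ratio could reach a permutation p below 0.1. At 21 to 199 reads per library *Ina* had the fewest reads of the 10 genes.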

Other observations

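Some glial genes moved apart within their lists. Of 3 genes of satellite glia, the cells that wrap neuronal cell bodies, *Fabp7* was higher with double knockout labels (log2 fold change 1.87, SE 0.29, limma-voom adjusted p = 0.0113) and *Kcnj10*, for a potassium channel of these cells, was lower (-1.25, SE 0.22, limma-voom adjusted p = 0.0138). *Slc1a3* was not called (0.73, limma-voom adjusted p = 0.264). The list median was 0.73. The 3 genes summed to 396 to 486 CPM in the Nf1 libraries and to 208 to 321 CPM in those labelled double knockout. Most of these sums was *Kcnj10*, at 361 to 432 CPM and at 119 to 219 CPM, so they do not describe the other genes of the list. Of 5 genes of nonmyelinating SCs, *Ngfr*, for the low-affinity neurotrophin receptor, was called higher (1.36, SE 0.33, limma-voom adjusted p = 0.0301) and none was called lower, with a list median of -0.36 and sums of 3148 to 3565 CPM and 2477 to 3409 CPM. For the 9 muscle genes the median change was 1.10 on the log2 scale, and 0 were called by limma-voom, by the edgeR quasi-likelihood test or by DESeq2, with 0 at an unadjusted p below 0.05.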
